A study of Mus musculus with 6 samples.

Results

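The genes described here encode the subunits of inhibin and activin (Inha, Inhba, Inhbb), the activin antagonists follistatin and FSTL3 (Fst, Fstl3), the activin receptors (Acvr1b, Acvr2a, Acvr2b), and anti-Müllerian hormone with its receptor (Amh, Amhr2). RUNX1 ChIP-seq peaks were assigned to these 10 members when the summit lay inside the gene or within 50 kb of either end. The series measured where RUNX1, a DNA-binding transcription factor, sits on chromatin of mouse granulosa cells, the cells that surround the oocyte in the follicle. Every animal was a 21-day-old CBA x C57BL/6 F1 mouse given 5 IU of eCG, a gonadotropin that drives follicle growth. The 0 h group held pre-ovulatory granulosa cells from before hCG. The 6 h group held peri-ovulatory granulosa cells collected 6 h after 5 IU of hCG, which was given 46 h after eCG and acts on the receptor of luteinising hormone to start ovulation. Each group had 2 ChIP libraries, made with an antibody to RUNX1, and 1 pooled input that has no peak list of its own. The protocol text mentions only the 6 h collection, so the 0 h group rests on titles and time-point labels. Nothing in the labels says whether replicates came from separate animals or pools of animals, so the spread between them may be technical. ChIP-seq peaks hold no expression values, so the cell type could not be checked against marker genes here.

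Inhibin and activin share their beta subunits. An alpha subunit (Inha) paired with a beta subunit (Inhba or Inhbb) gives inhibin, which lowers pituitary FSH secretion, and beta subunits paired with each other give activin, which raises it. Activin binds a type II receptor (Acvr2a or Acvr2b), which recruits the type I receptor Acvr1b and signals through SMAD2 and SMAD3, and follistatin and FSTL3 bind activin and keep it from its receptors. AMH, made by granulosa cells of growing follicles, acts through its own type II receptor Amhr2 and restrains the recruitment and FSH response of follicles.

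The 4 lists held 51515 peaks, of which 137 fell in the windows of the members. These were 5 of 948 peaks in 0 h replicate 1 and 9 of 3135 in 0 h replicate 2, against 57 of 18761 in 6 h replicate 1 and 66 of 28671 in 6 h replicate 2. The 0 h lists were thus far shorter than the 6 h lists over the whole genome, and the groups did not overlap in member peaks either. The genome-wide background, recovered from the deposited fold and p-value of each peak, was 2.77 and 2.65 reads per position at 0 h and 2.76 and 2.13 at 6 h. The library with the most peaks had the lowest background. The background tracks depth only where fragment lengths are equal, which was not tested.

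The mean number of member peaks was 7 ± 2.83 (SD, n = 2) at 0 h and 61.5 ± 6.36 (SD, n = 2) at 6 h, an 8.79-fold difference, while the mean over all peaks differed 11.6-fold. On the scale log2(count + 1) the difference was 3.01 (two-sided exact permutation over the libraries, n = 2 and 2, p = 0.333), and 0.333 is the smallest p that 2 libraries against 2 can give. As a share of each list, the members held 5.27 and 2.87 of every 1000 peaks at 0 h and 3.04 and 2.30 at 6 h. These shares overlapped between the groups, with a difference of −1.40 per 1000 (two-sided exact permutation over the libraries, n = 2 and 2, p = 0.667). It was −0.20 without 0 h replicate 1 and −2.60 without 0 h replicate 2, and turned to 0.27 with only summits inside the gene counted. The overlap depended on the rule. With peaks of −log10 q of at least 20, the lower 0 h share was 4.66 and the higher 6 h share 3.07 (difference −3.13). With summits within 10 kb these were 1.91 and 1.55 (difference −0.70). The same permutation test gave p = 0.333 for each, the smallest possible. The lists were also cut to the 948 peaks of lowest p-value in each library. The members then held 5 and 4 peaks at 0 h and 4 and 4 at 6 h. This cut fixes the total number of peaks, so it compares shares and cannot show a rise in number.

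**Figure D1:**
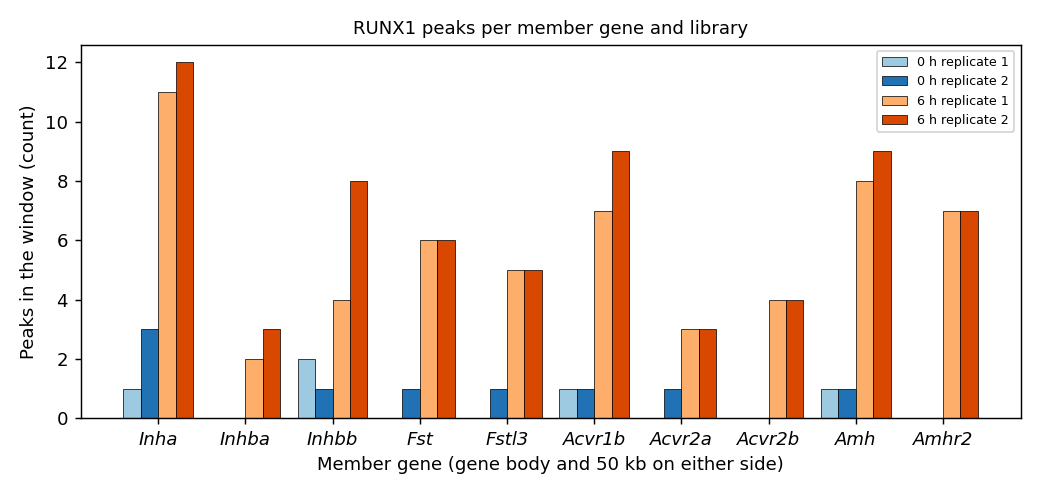
Number of RUNX1 peaks (vertical axis, count) with a summit in the window of each member gene (horizontal axis) in the 4 libraries (bars). Every member had at least 2 peaks in each 6 h library, and Inhba, Acvr2b and Amhr2 had none in either 0 h library.

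All 10 members had a peak in each 6 h library, where 69.1% of 21883 protein-coding genes had a peak in both, and 4 had one in 0 h replicate 1 and 7 in 0 h replicate 2. Under the same rule the share of coding genes with a peak was 69.2% for 6 h replicate 1 and 76.1% for 6 h replicate 2. It was 9.43% for 0 h replicate 1 and 28.2% for 0 h replicate 2. The difference between the time points was 4.50 members (two-sided exact permutation over the libraries, n = 2 and 2, p = 0.333, the smallest possible). Inha, Inhbb, Acvr1b and Amh had a peak in all 4 libraries, as did 8.96% of coding genes. Fst, Fstl3 and Acvr2a had a peak in both 6 h libraries and in 0 h replicate 2 alone, as did 19.1% of all coding genes. Inhba, Acvr2b and Amhr2 had peaks in both 6 h libraries and in neither 0 h library, a pattern shown by 40.6% of coding genes. Without 0 h replicate 2, the number of members with no 0 h peak was 6. No member had peaks in both 0 h libraries and in neither 6 h library, a pattern of 0.00457% of coding genes.

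At equal list length the members near a top peak were equal in number at the 2 time points, and 2 of the 4 differed. The 948 top peaks included a peak near Inha, Inhbb, Acvr1b and Amh in each of the 0 h libraries. In each of the 6 h libraries they included a peak near Fst, Acvr1b, Acvr2a and Amh. Over all coding genes, a top peak lay near 9.43% and 10.3% in the 0 h replicates and 9.99% and 8.40% in the 6 h replicates. Inha and Inhbb were in both 0 h sets and neither 6 h set, as were 2.48% of coding genes, or 543 of the 1448 (6.62% of all) in both 0 h sets. Fst and Acvr2a were in both 6 h sets and neither 0 h set, as were 2.12% of coding genes, or 465 of the 1524 (6.96% of all) in both 6 h sets. Acvr1b and Amh were in all 4, as were 3.27% of coding genes. Such an exchange was thus common over all genes, and with 4 members at each time nothing particular to the members can be read from it.

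Peaks that shared at least 1 bp were merged over the 4 libraries, which gave 72 member regions. Of these, 47 were replicated at 6 h, that is, held a peak of both 6 h libraries, and 4 were replicated at 0 h. Over all 29186 merged regions 58.9% were replicated at 6 h and 2.87% at 0 h. Another 24 rested on a peak of 1 library at 6 h with no 0 h peak, 18 of them in replicate 2 and 6 in replicate 1. Of the 47 regions replicated at 6 h, 9 held a 0 h peak, beside 16.5% of all 17190 such regions. Without 0 h replicate 2 the number was 4, and at a −log10 q of at least 20 it was also 4. The windows also take in other genes. A member was the nearest coding gene for 19 of the 47 regions, and another gene was nearer for 28, so the window counts include sites beside other genes. No such share was computed over the windows of all coding genes.

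**Figure D2:**
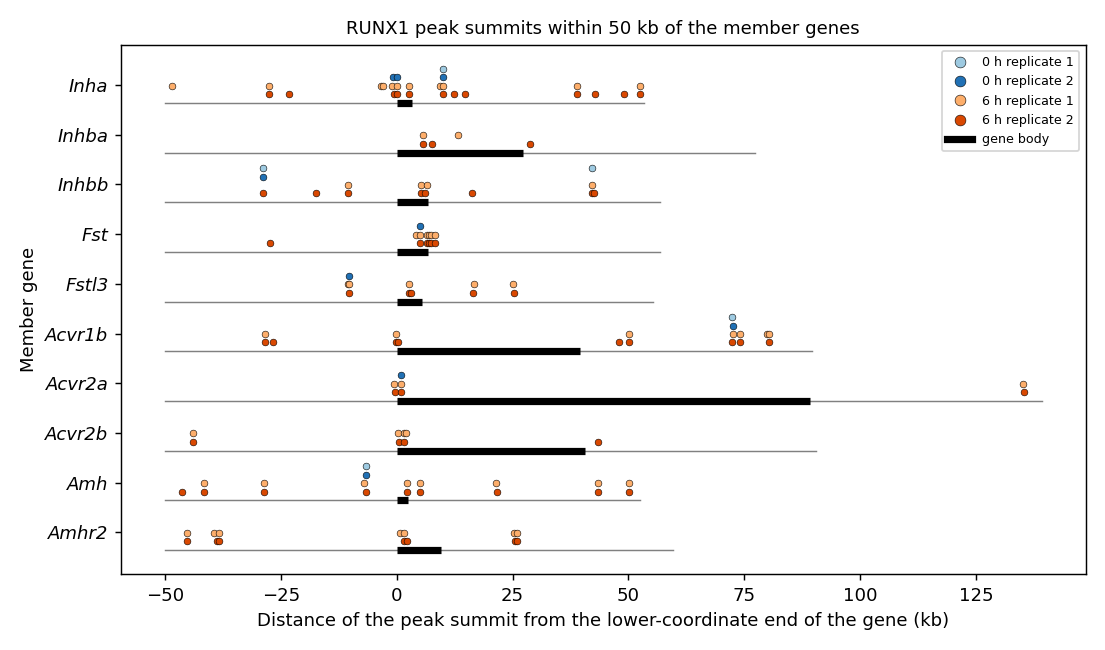
Position of each peak summit relative to the lower-coordinate end of the member gene (horizontal axis, kb), with 1 row of dots per library above the gene body (black bar) and its window (grey line). The 6 h summits of Fst, Acvr2a and Acvr2b sit mostly at an end of the gene, and the 0 h summits of Acvr1b, Amh and Fstl3 lie outside the gene.

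The promoter sequences were searched for motifs, although most 6 h summits near them lay outside the printed bases. RefSeq promoters on GRCm38.p6, from 250 bases before to 50 after the start site, matched 8 of the 10 members by symbol, and Fst and Amh had no entry. A peak of both 6 h libraries overlapped 5 of these 8 windows, those of Inha, Inhbb, Acvr1b, Acvr2a and Acvr2b, beside 25.3% of the 32851 windows in the promoter table. A peak of 1 library at 6 h overlapped those of Inhba and Amhr2, beside 6.81% of all windows, and none overlapped that of Fstl3. Inha was the only 1 of the 8 with a 0 h peak over the window, beside 5.00% of all windows. The 7 with a summit within 500 bp of the window are given 5′ to 3′ on the strand of the gene, to be read beside the values of each gene. They lie at chr1:75507359-75507658 (Inha, plus strand), chr13:16011601-16011900 (Inhba, plus), chr1:119422199-119422498 (Inhbb, minus), chr15:101173822-101174121 (Acvr1b, plus), chr2:48813859-48814158 (Acvr2a, plus), chr9:119401928-119402227 (Acvr2b, plus) and chr15:102445117-102445416 (Amhr2, plus). Capitals mark each match to a searched motif on either strand.
Inha: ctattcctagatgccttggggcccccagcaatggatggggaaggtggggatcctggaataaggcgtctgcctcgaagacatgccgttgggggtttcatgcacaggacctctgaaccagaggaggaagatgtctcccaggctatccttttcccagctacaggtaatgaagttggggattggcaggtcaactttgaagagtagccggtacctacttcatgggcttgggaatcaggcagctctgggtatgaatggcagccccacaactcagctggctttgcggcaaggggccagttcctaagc
Inhba: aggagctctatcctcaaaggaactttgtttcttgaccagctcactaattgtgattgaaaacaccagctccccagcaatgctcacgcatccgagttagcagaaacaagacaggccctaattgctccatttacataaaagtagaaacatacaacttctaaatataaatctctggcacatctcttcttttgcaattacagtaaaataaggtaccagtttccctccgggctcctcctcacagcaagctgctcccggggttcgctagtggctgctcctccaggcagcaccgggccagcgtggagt
Inhbb: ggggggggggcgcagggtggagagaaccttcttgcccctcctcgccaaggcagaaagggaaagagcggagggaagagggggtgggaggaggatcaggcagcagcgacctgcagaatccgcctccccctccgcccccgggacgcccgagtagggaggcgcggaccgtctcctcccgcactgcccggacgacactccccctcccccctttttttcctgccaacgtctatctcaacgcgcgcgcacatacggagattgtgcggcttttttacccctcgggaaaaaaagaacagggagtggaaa
Acvr1b: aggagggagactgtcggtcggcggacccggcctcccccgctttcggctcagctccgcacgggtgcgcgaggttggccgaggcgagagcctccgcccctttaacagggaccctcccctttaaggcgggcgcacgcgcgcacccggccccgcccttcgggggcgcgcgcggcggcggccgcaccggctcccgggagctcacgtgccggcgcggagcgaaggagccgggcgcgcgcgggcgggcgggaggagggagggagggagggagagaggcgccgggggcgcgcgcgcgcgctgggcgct
Acvr2a: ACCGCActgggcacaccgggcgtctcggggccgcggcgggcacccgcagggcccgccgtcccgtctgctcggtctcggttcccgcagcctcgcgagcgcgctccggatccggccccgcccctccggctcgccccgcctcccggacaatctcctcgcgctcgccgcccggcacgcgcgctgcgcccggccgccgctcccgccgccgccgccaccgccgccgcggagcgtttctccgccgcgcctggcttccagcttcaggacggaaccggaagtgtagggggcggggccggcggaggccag
Acvr2b: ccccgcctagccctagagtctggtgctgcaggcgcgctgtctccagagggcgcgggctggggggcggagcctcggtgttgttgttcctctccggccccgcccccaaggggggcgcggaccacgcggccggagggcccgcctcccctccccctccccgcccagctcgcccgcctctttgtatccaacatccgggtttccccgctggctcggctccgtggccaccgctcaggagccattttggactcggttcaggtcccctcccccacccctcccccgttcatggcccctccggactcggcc
Amhr2: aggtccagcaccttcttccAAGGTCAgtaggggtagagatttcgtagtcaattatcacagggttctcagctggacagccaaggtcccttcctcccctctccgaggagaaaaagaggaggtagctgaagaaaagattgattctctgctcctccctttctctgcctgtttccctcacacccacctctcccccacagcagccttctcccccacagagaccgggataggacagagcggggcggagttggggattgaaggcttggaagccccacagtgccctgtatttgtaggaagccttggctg

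The core of the RUNX motif, TGTGGT or TGCGGT on either strand, was found in 1 of the 8 windows, that of Acvr2a, where it stands as ACCGCA from 250 to 245 bases before the start site. Over all 32851 promoters of the same length, 22.4% held the core. The NR5A motif AAGGTCA, read by nuclear receptors such as SF-1, was found in the Amhr2 window from 231 to 225 bases before the start site, against 4.72% of all promoters. The only called peak over that window, at 102445405 to 102445827 in 6 h replicate 1, did not reach the motif. The AP-1 motif TGANTCA, the GATA motif AGATAA, the CRE TGACGTCA and the forkhead motif TGTTTAC were in none of the 8, against 7.81%, 11.2%, 1.79% and 3.65% of all promoters. No motif searched overlapped another in these windows. The summits of the 6 h peaks lay mostly outside the printed bases. The motif counts thus describe the windows and not the bases under the summits. The summits were 401 and 466 bases before the start site for Inha and 476 and 384 before it for Acvr2a. They were 253 and 242 before it for Acvr1b and 245 and 171 before it for Acvr2b. The G and C content of the windows ran from 47.7% for Inhba to 80.3% for Acvr2a.

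Of the ligand subunits, Inha had the most peaks in its window, although most of its regions were nearer to other coding genes. Inha (gene ID 16322) lies on chromosome 1 from 75507077 to 75510366, with 6 other coding genes reaching into its window. Its window held 1 and 3 peaks at 0 h and 11 and 12 at 6 h, the highest 6 h count of the members. The 6 h mean of 11.5 ± 0.707 (SD, n = 2) stood at percentile 98.9 among all coding genes. With only summits inside the gene counted, Inha, Inhba and Inhbb each had 2 and 2 peaks at 6 h. The region at the gene start, at 75506961 to 75507934, overlapped the promoter printed for Inha. It had no peak in 0 h replicate 1, a fold enrichment over local background of 7.78 in 0 h replicate 2, and 12.4 and 16.9 in the 6 h replicates. Fold enrichment is the authors' value and depends on the depth and input of each library, so it is read here against the other peaks of its own list. Those folds stood at percentile 59.7 of the 0 h list and at 76.1 and 77.8 of the 6 h lists.

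A neighbouring region at 75505054 to 75506832 lay inside Obsl1, 937 bp from the nearer end of Inha and 346 bp from an end of Obsl1. It had a peak in 0 h replicate 2 and both 6 h libraries, at percentile 19.6 and at percentiles 64.8 and 26.9. The only Inha region replicated at 0 h was further out, at 75516340 to 75517515, 6632 bp from Inha and 4531 bp from Stk11ip. The folds were 12.5 and 10.8 at 0 h, ranking at percentiles 90.3 and 87.1, and 15.7 and 25.8 at 6 h, ranking at percentiles 86.4 and 91.2. This region thus ranked high in all 4 lists, and its summits lay within 106 bp of each other. Inside Inha, a further region at 75509355 to 75510110 was found at 6 h only, ranking at percentiles 42.3 and 39.5.

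Inhba, which encodes the beta A subunit, had the fewest 6 h peaks of the members, with 2 and 3 at 6 h and none at 0 h. The gene (ID 16323) lies on chromosome 13 from 16004256 to 16031609, and no other coding gene reaches into its window. Its only replicated region was inside the gene at 16009790 to 16010166, 1902 bases before the start site of the printed promoter, with fold values of 10.8 and 18.3, ranking at percentiles 67.6 and 81.5. The peak over the printed promoter, at 16011804 to 16012092, was called in 6 h replicate 2 alone, at percentile 9.71. Its summit lay 93 bases past the start site. The mean count of 2.50 ± 0.707 (SD, n = 2) stood at percentile 58.7 among coding genes.

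Inhbb, which encodes the beta B subunit, had the 1 member region replicated at 0 h that was not replicated at 6 h. The gene (ID 16324) lies on chromosome 1 from 119415463 to 119422248 on the minus strand, and its window held 2 and 1 peaks at 0 h and 4 and 8 at 6 h. A region at 119386340 to 119386767, 28876 bp beyond the end of the gene farther from its start site, was replicated at 0 h. There it had fold values of 10.04 and 8.73, ranking at percentiles 78.8 and 72.2. At 6 h it was not called in replicate 1, and in replicate 2 it had a fold value of 5.80 at percentile 5.99. These percentiles refer to lists of different length, so they cannot show whether binding changed. Divided by the genome-wide background, the reads over the summit were 24.2 and 21.1 at 0 h and 22.5 in 6 h replicate 2, so the called values overlapped. Inhbb was the nearest coding gene. The local background at this region was 5.77 reads in 0 h replicate 1 and 7.45 in 6 h replicate 2, above the genome-wide values of those libraries.

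The other Inhbb regions were called mainly at 6 h. The region over the start of the gene, at 119421301 to 119422510, had fold values of 12.8 and 14.6 at 6 h, ranking at percentiles 77.8 and 70.7, and no 0 h peak. A second inside the gene, at 119420202 to 119421084, stood at percentiles 40.8 and 26.8. The region at 119457328 to 119457811 lay 35365 bp on the other side and was nearer to Ralb, at 12692 bp. It had a peak in 0 h replicate 1 at percentile 57.5, none in 0 h replicate 2, and percentiles 70.2 and 62.6 at 6 h.

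The antagonist Fst carried the highest-ranking member region by the mean fold percentile of the 6 h lists, although in 6 h replicate 1 the Nr4a1 region in the window of Acvr1b ranked above it. Fst (ID 14313), which encodes follistatin, lies on chromosome 13 from 114452262 to 114458989, and no other coding gene reaches into its window. The window held 0 and 1 peaks at 0 h and 6 and 6 at 6 h. A run of 5 regions replicated at 6 h lay between 114456797 and 114460733, across the higher-coordinate end of the gene. The highest, at 114456797 to 114457744, lay inside the gene and 1625 bp from that end. It had no peak in 0 h replicate 1, a fold value of 9.03 at percentile 75.3 in 0 h replicate 2, and 37.0 and 55.9 at 6 h, ranking at percentiles 99.2 and 99.4. By fold it ranked 149 of 18761 and 172 of 28671 in the 6 h lists. The next region, at 114457884 to 114458965, had fold values of 25.5 and 33.2, ranking at percentiles 96.6 and 95.5, and no 0 h peak. The other 3 lay 221, 661 and 1434 bp outside that end, ranking at percentiles from 45.0 to 75.4. Which end of Fst is its start is not given by the tables used here, and 0 h replicate 2 is the only library behind the 0 h value.

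Fstl3 (ID 83554), a relative of follistatin on chromosome 10 from 79777274 to 79782630, showed no peak over its promoter. Its window held 0 and 1 peaks at 0 h and 5 and 5 at 6 h, with 7 other coding genes in reach. Its highest region, at 79766543 to 79767813, lay inside Rnf126 and 10244 bp from Fstl3. It had a fold value of 7.62 at percentile 56.1 in 0 h replicate 2 alone, and 17.9 and 27.7 at 6 h, ranking at percentiles 90.1 and 92.7. The replicated region inside Fstl3, at 79779921 to 79780140, stood at percentiles 47.2 and 14.4 at 6 h. The follistatin genes therefore differed in where RUNX1 lay: the top region of Fst was inside the gene, and that of Fstl3 was in another gene.

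The type I receptor Acvr1b had its highest region far from the gene and close to another gene. Acvr1b (ID 11479) lies on chromosome 15 from 101174072 to 101213684, and its window held 1 and 1 peaks at 0 h and 7 and 9 at 6 h. The 0 h peaks fell in the region at 101245960 to 101247596, 32815 bp from Acvr1b but 7403 bp from Nr4a1, an orphan nuclear receptor gene. The folds were 11.1 and 12.9 at 0 h, ranking at percentiles 85.3 and 93.5, and 41.6 and 47.5 at 6 h, ranking at percentiles 99.6 and 98.7. At Acvr1b itself, the region at 101173651 to 101173970 lay over the printed promoter. That region had no 0 h peak and fold values of 13.3 and 15.6 at 6 h, ranking at percentiles 79.7 and 74.4. With peaks counted only for their nearest coding gene, Acvr1b had no 0 h peak.

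The type II receptors Acvr2a and Acvr2b differed in the rank of the region at the gene start. Acvr2a (ID 11480) lies on chromosome 2 from 48814109 to 48903264. It had 0 and 1 peaks at 0 h and 3 and 3 at 6 h in the longest window of the members, 189 kb. The region at 48814041 to 48815497 reached from the printed promoter into the gene, with its highest summit 856 bases past the start site. It had no peak in 0 h replicate 1, a fold value of 6.57 at percentile 33.8 in 0 h replicate 2, and 22.8 and 38.9 at 6 h, ranking at percentiles 95.1 and 97.3. A second region just before it spans 48813531 to 48813919. The peak of 6 h replicate 2 reached over the RUNX core of the printed promoter, and that of 6 h replicate 1 ended before it, at 48813845. The region was called at 6 h only, with fold values of 7.37 and 21.0, ranking at percentiles 34.9 and 86.1, so the replicates ranked it differently.

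Acvr2b (ID 11481), on chromosome 9 from 119401583 to 119442148, had no peak at 0 h and 4 and 4 at 6 h. The region over its promoter, at 119401862 to 119402138, had fold values of 8.07 and 12.6, ranking at percentiles 43.9 and 61.3. The next, at 119402516 to 119403817, stood at percentiles 48.2 and 40.4. None of its regions reached the top 10% of a 6 h list, whereas that of Acvr2a did in both lists.

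Amh and its receptor had many 6 h peaks, most of them nearer to other genes. Amh (ID 11705) lies on chromosome 10 from 80805240 to 80807679, with 8 other coding genes in reach, the most of any member. Its window held 1 and 1 peaks at 0 h and 8 and 9 at 6 h. The 0 h peaks lay in the region at 80797547 to 80799570, inside Plekhj1 and 6673 bp from Amh, with its highest summit 59 bp from an end of Plekhj1. The folds were 5.60 and 9.86 at 0 h, ranking at percentiles 16.0 and 82.3, and 25.2 and 30.9 at 6 h, ranking at percentiles 96.4 and 94.4. The 0 h percentiles refer to lists of 948 and 3135 peaks, in which it ranked 796 and 555. Inside Amh, a region at 80806937 to 80807622 had fold values of 5.95 and 10.7 at 6 h, ranking at percentiles 16.5 and 50.3, and no 0 h peak.

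Amhr2 (ID 110542), on chromosome 15 from 102445002 to 102454640, had no peak at 0 h and 7 and 7 at 6 h. Its highest replicated region, at 102470304 to 102470566, lay 15781 bp from Amhr2 and 29 bp from an end of Pcbp2, ranking at percentiles 52.7 and 72.6. The replicated region inside Amhr2, at 102446278 to 102446740, stood at percentiles 40.8 and 55.0. Both the hormone and its receptor therefore had a replicated 6 h region inside the gene, and neither of those regions ranked high. No 0 h peak was called inside either gene, and reads at sites without a call are unknown.

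Over the members, 9 of 10 had a peak of both 6 h libraries inside the gene, against 34.4% of coding genes, and Acvr1b was the exception. A 0 h peak lay inside Inha, Fst and Acvr2a, all in replicate 2, against 8.34% of coding genes with a 0 h peak inside. In total 13 of the 47 replicated 6 h regions had their summit inside the member, and 12 lay within 1 kb of its end. Over the windows of all coding genes, counting a region once for each window that holds it, these shares were 24.4% and 19.4%.

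**Figure D3:**
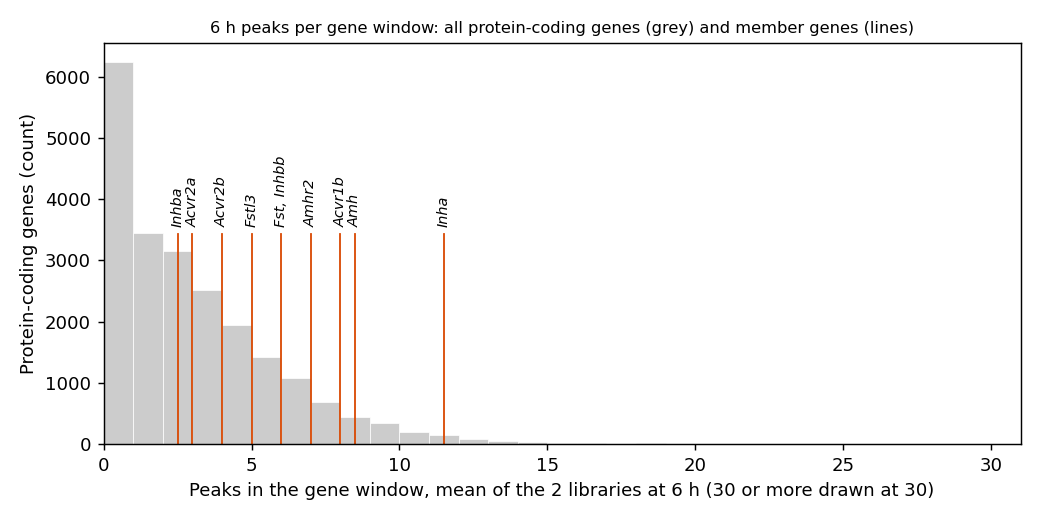
Number of protein-coding genes (vertical axis, grey bars) by the mean number of 6 h peaks in the gene window (horizontal axis), with the members as lines. The members run from Inhba at 2.50 to Inha at 11.5, and the distribution falls from its highest bar at fewer than 1 peak.

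The members' windows held a median of 5.5 and 6.5 peaks in the 6 h replicates, against 2 and 3 over all coding genes. By the 6 h mean the members stood between percentile 58.7 and percentile 98.9 of coding genes. Across the members, the 6 h mean rose with the number of other coding genes in the window (Spearman's rho = 0.58 over 10 members, a description across genes of the same libraries) and fell with window length (rho = −0.63). The part of gene density in the members' counts was not tested.

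The 10 member regions with a 0 h peak all held a 6 h peak as well, 9 of them in both 6 h libraries. Their reads over the summit were recovered from fold and p-value as whole numbers, which puts the libraries on the scale of reads. In the Fst region these were 33 reads in 0 h replicate 2 against 149 and 180 at 6 h. In the Acvr2a region they were 23 against 132 and 183. In the Nr4a1 region in the window of Acvr1b they were 47 and 53 at 0 h against 248 and 253 at 6 h. The Plekhj1 region beside Amh had 41 and 77 at 0 h against 186 and 222 at 6 h. The Stk11ip region beside Inha had 60 and 62 at 0 h against 141 and 185 at 6 h. The 6 h counts were thus higher in each of these, beside a genome-wide background of 2.76 and 2.13 at 6 h against 2.77 and 2.65 at 0 h. The library behind the 0 h values of Fst and Acvr2a, replicate 2, had a lower background than 6 h replicate 1.

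The region beyond Inhbb was different. It had 67 and 56 reads at 0 h, no call in 6 h replicate 1 and 48 reads in 6 h replicate 2. Its called values overlapped once divided by the genome-wide background of each library, as given above, and 6 h replicate 1 has no value to compare. In the other 9 member regions every library called at 6 h lay above every library called at 0 h on this scale. Over all 2958 regions with peaks of both times, 95.6% showed that order, so 9 of 10 is near the background and the Inhbb region belongs to the remainder. Of all 837 regions replicated at 0 h, 95.0% were replicated at 6 h, beside 3 of the 4 member regions. These values hold for called peaks, and reads at sites without a call are unknown.

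**Figure D4:**
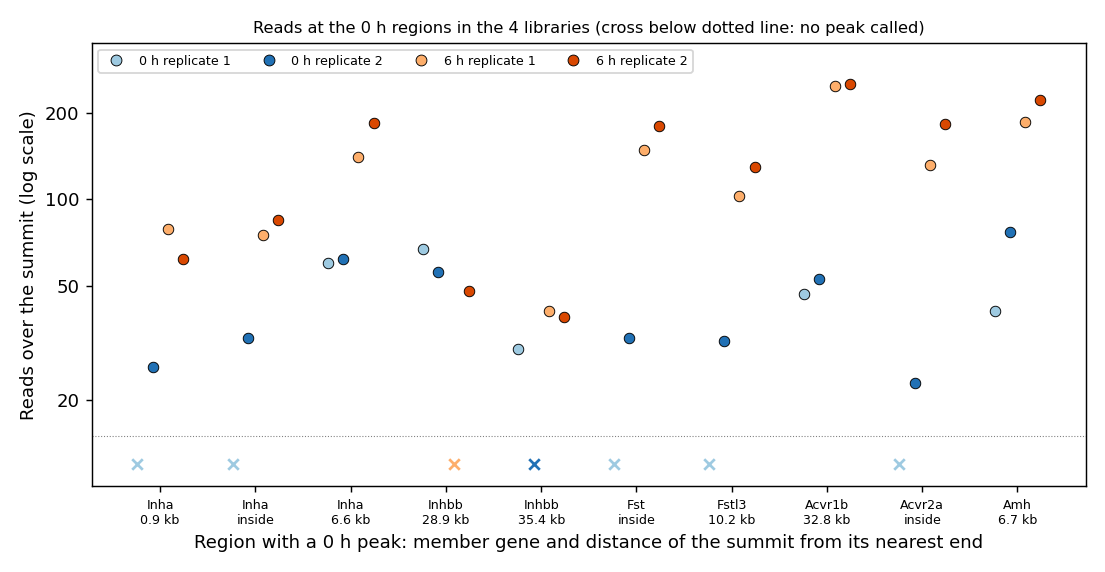
Reads over the summit (vertical axis, log scale) in the 4 libraries for the 10 member regions with a 0 h peak (horizontal axis, named by member and distance of the summit from its nearest end). A cross below the dotted line marks a library without a called peak. The unscaled reads of the Inhbb region at 28.9 kb are highest at 0 h. Divided by the genome-wide background, its called values overlap (24.2 and 21.1 at 0 h, 22.5 in 6 h replicate 2). In 6 h replicate 1 the region has no call and its reads are unknown.

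Among the 47 regions replicated at 6 h, those with a 0 h peak ranked higher in the 6 h lists. Their median fold percentile was 90.1 and 92.7 in the 6 h replicates, against 45.2 and 55.8 for the 38 without a 0 h peak. Over all 17190 regions replicated at 6 h the medians were 82.9 and 86.9 with a 0 h peak and 47.6 and 63.7 without, so the order is that of the whole lists. The sets of member regions overlapped, from 64.8 to 99.6 against 2.68 to 96.6 in replicate 1 and from 26.9 to 99.4 against 7.48 to 95.5 in replicate 2. Of the 6 regions above percentile 90 in both 6 h lists, 5 held a 0 h peak, beside 54.6% of the 1649 such regions over the genome, and the exception was the Fst region at the higher-coordinate end of the gene. Regions with a 0 h peak were also wider, with a median of 1271 bp against 488 bp, beside 956 and 565 bp over all replicated regions.

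The wider activin, BMP and AMH pathway was described by 27 genes, mostly ligands, receptors, antagonists and SMADs, with Furin, Foxh1, Fkbp1a and Zfyve9 as other genes linked to these pathways. At 6 h, 23 of the 27 had a peak in both libraries, beside 69.1% of all coding genes, and Bmp15, Igsf1 and Mstn had none in either. At 0 h, 1 of the 27 had a peak in replicate 1 and 9 in replicate 2, beside 9.43% and 28.2% of all coding genes. Smad7, which encodes an inhibitory SMAD, had a peak in both 0 h libraries, with 1 and 2 peaks at 0 h and 10 and 11 at 6 h. Smad3, which transmits activin signals, had 0 and 3 peaks at 0 h and 16 and 18 at 6 h, the highest count of this list. The other genes with a 0 h peak were Bmpr1a, Smad1, Smad2, Smad4, Smad6, Smad9 and Tgfbr3, each with 1 peak in replicate 2. Inhbc and Inhbe, the remaining beta subunit genes of the list, had 4 and 6 peaks each at 6 h and none at 0 h, and lie next to each other on chromosome 10 so that their windows share peaks.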

How the data were processed

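The members and gene lists were chosen with earlier results of these data known. Reads of 75 nt were processed by the authors with Bowtie2 2.2.5 and MACS2 on mm10 (GRCm38), per the submitters' processing notes, and their settings are not given in the sources used here. Each deposited peak list covers 1 ChIP library against an input. The deposited values are the fold enrichment, a ratio over local background, the −log10 of the p-value and q-value, and a score that was not used. The lowest −log10 p was 9.01 to 9.18 in the 4 lists.

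Summits were assigned to genes of the RefSeq GRCm38.p6 table, and coordinates count from 1. Fold percentiles are ranks within a list. Sequencing depth is not stated. Reads over the summit and the background were solved from fold and p-value under MACS2's Poisson model with a pseudocount of 1, with a misfit of at most 0.005 in −log10 p, for 100% of peaks. The commonest background of a list was taken as its genome-wide background. It tracks depth where fragment lengths are equal, which was not tested. Window counting and solving were tested on simulated data. Libraries were compared with exact permutation tests in Python 3.11.15. The text describes all 10 members. Of their regions it names each with a 0 h peak, the highest replicated 6 h region of each member by mean fold percentile, and regions at or inside the gene, which were added after their values were seen. Promoters are printed where a summit lay within 500 bp of the window. Alternatives were the distance, the nearest gene, interval overlap, −log10 q of at least 20, equal list length, summits within 100 bp, each library left out, and a replicate block. Inputs were not analysed here, since they have no list of their own.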

Additional observations from a re-analysis of the deposited data

How the results depend on the processing

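With 2 libraries against 2 no test could pass 0.05, so the alternatives speak only to direction and size. The log2 difference in member peaks was −0.13 with equal numbers of peaks per library, where the difference in members with a peak was 0, and 2.64 to 3.38 with a library left out. The difference in members with a peak was 3 to 6 with a library left out, against 4.50. It was 7 within 10 kb, 8 with summits inside the gene and 7.5 by nearest gene. Within 100 kb it was 3.5, and at a −log10 q of at least 20 it was 6. The difference per 1000 peaks was 0.27 with summits inside the gene only, and −2.60 to −0.20 with a library left out. It was −3.13 at a −log10 q of at least 20 and −0.70 within 10 kb, and under both rules each 0 h share exceeded each 6 h share. At equal numbers of peaks it was −0.53, and by nearest gene −0.06. Members with a region replicated at 0 h numbered 2 within 10 kb, 0 inside the gene, and 1 by nearest gene, against 4. Members with a region replicated at 6 h were 4 at equal numbers of peaks, against 10. Members with peaks at 6 h alone were 6 within 10 kb, 6 inside the gene and 6 by nearest gene, against 3. They were 5 at a −log10 q of at least 20, 2 within 100 kb and 2 at equal numbers of peaks. With a 0 h library left out they were 3 to 6 (6 without replicate 2). The share of coding genes with this pattern was computed only for the main rule and for equal list length. Whether the other counts are particular to the members was thus not tested. Replicated 6 h regions numbered 22 within 10 kb, 71 within 100 kb, 13 inside the gene, 19 by nearest gene, and 4 at equal numbers, against 47. Those with a 0 h peak numbered 14 within 100 kb, 3 inside the gene, 3 by nearest gene, 4 at a −log10 q of at least 20, 2 at equal numbers, and 4 to 8 with a 0 h library left out (4 without replicate 2), against 9. With a library left out, replication at its own time point could not be assessed, and such values were not computed. With the replicate number as a block the log2 difference stayed at 3.01, the members with a peak at 4.50 and the difference per 1000 at −1.40 (exact sign-flip permutation, two-sided, p = 0.5 for each, the smallest that 2 pairs allow). The labels do not say that the numbers pair the samples, and the deviations of same-numbered libraries over 21883 coding genes had a correlation of −0.03.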
